A study of Arabidopsis thaliana with 12 samples.

Results

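The 10 genes described here form the core of the circadian clock of Arabidopsis thaliana: CCA1, LHY, RVE8, PRR9, PRR7, PRR5, TOC1, GI, ELF4 and LUX. They were taken by locus identifier as established clock components, with earlier results of these data known. All 10 were found among the 33726 entries of the deposited table. RNA had been measured in leaves of 18 days of age in 4 groups of 3 libraries each. The groups were Columbia wild type plants and 3 mutants in that same ecotype, labelled anac017, anac082 and anac090, which by the labels are T-DNA insertion lines of the NAC transcription factor genes ANAC017, ANAC082 and ANAC090. The labels name the SALK, SAIL and GABI-KAT collections as sources without saying which line belongs to which mutant. Plants were grown in cycles of 16 h light and 8 h dark at 22 °C. The hour of harvest is not given, and neither is what the replicate numbers 1, 2 and 3 in the sample titles stand for. Whether the 3 libraries of a group are from separate plants is not said, so the p-values describe only how these samples spread, and that spread may be technical.

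The plant clock is a loop of transcription factors that switch each other on and off over the day. The Myb-like proteins CCA1 and LHY, whose transcripts peak around dawn, repress genes of the evening by binding a short promoter sequence called the evening element. The pseudo-response regulators PRR9, PRR7, PRR5 and TOC1 follow in turn from morning to evening and repress CCA1 and LHY, the related Myb-like protein RVE8 activates evening genes through the evening element, and ELF4 and LUX join ELF3 in the evening complex, a night-time repressor. A sample of leaf RNA therefore holds different amounts of these transcripts at different hours.

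The values are log2 values to which quantile normalization between libraries had been applied, so read depth is unknown, and limma tested the 16817 genes whose back-transformed values averaged at least 1. All 10 clock genes were among them, and no other entry of the table overlaps any of their loci. Some libraries stood apart: on the first principal component (51.0% of the variance) anac082 replicate 1 lay at -27.0, close to the wild type range of -35.6 to -29.7, while the other anac082 libraries lay at 3.60 and 5.70, and anac090 replicate 3 lay at 74.1 against 15.9 and -12.7. Transcripts of ANAC017 and ANAC082 were higher, not lower, in the libraries labelled with their mutation (ANAC017 6.75 ± 0.08 against 5.89 ± 0.10 in wild type, ANAC082 9.82 ± 0.10 against 5.02 ± 0.05, SD, n = 3), and ANAC090 stood at 0.95 ± 0.26 against 1.54 ± 0.20, so groups are named by label only. Mesophyll markers (RBCS1A, RBCS3B, LHCB1.3, CA1) were high in every library, with LHCB1.3 at the highest value of the normalized scale in all 12, and the 4 floral markers AP1, AP3, AG and SEP3 were all too low to be tested, with AP1 listed at 0 in all 12. The back-transformed values of these 4 summed to 1.28 to 2.22 in wild type, 0.141 to 0.624 in anac017, 0.757 to 0.911 in anac082 and 0.683 to 0.993 in anac090. In bulk leaf RNA, fewer cells of a type and less RNA per cell cannot be told apart.

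CCA1 (AT2G46830, chromosome 2, 19245672 to 19248914, TAIR10) and LHY (AT1G01060, chromosome 1, 33379 to 37871) are the paired morning factors. The stretches before their starts are shown because both hold a G-box, CACGTG, a binding sequence of light-signalling factors. The share of all 27443 promoters with a G-box within 250 bases before to 50 after the start is 7.68%. The window holds it in 6 of the 10 clock genes (CCA1, LHY, PRR9, PRR7, LUX and RVE8), in RVE8 after the annotated start. The CCA1 stretch, chr2:19245388-19245458 (TAIR10.1, plus strand), also holds the TCP site GTCCCAC, found in 1.37% of promoters and, among the clock genes, in CCA1 and TOC1. The LHY stretch is chr1:37936-37961 (minus strand). Capitals mark the motifs, each stretch reads 5′ to 3′ on the strand of its gene, and a match describes letters only and does not show binding.
CCA1: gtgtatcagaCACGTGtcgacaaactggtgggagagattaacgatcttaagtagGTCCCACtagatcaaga
LHY: acaatatcacCACGTGtcgatctgcg

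CCA1 stood at 5.77, 6.35 and 6.34 in wild type replicates 1, 2 and 3, and at 4.95, 5.63 and 5.49 in anac017. In anac082 it stood at 5.43, 6.07 and 6.02, and in anac090 at 5.13, 5.69 and 5.56. Every anac017 and anac090 library lay below every wild type library, while those of anac082 overlapped with wild type, and within each genotype replicate 1 was the lowest. LHY stood at 4.90, 5.44 and 5.35 in wild type and at 4.72, 5.09 and 5.02 in anac017. In anac082 it was 4.34, 5.11 and 5.05, and in anac090 4.37, 4.74 and 4.87. Replicate 1 was again the lowest in all 4 genotypes, and only the anac090 libraries all lay below wild type. The group means of CCA1 ran from 6.15 ± 0.33 (SD, n = 3) in wild type through 5.84 ± 0.36 in anac082 and 5.46 ± 0.29 in anac090 to 5.36 ± 0.36 in anac017, and the libraries of each group overlapped with those of the next in this order. For LHY the order was wild type at 5.23 ± 0.29, anac017 at 4.95 ± 0.20, anac082 at 4.83 ± 0.43 and anac090 at 4.66 ± 0.26, with overlap between all neighbours.

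RVE8 (AT3G09600, chromosome 3, 2946406 to 2948995), the Myb-like activator, stood at 4.29, 4.59 and 4.74 in wild type and 4.31, 4.83 and 4.68 in anac017. It was at 3.84, 4.53 and 4.73 in anac082 and at 3.97, 4.22 and 4.70 in anac090. Replicate 1 was the lowest of RVE8 in all 4 genotypes, and the genotypes overlapped throughout, with group means between 4.29 ± 0.37 in anac090 and 4.61 ± 0.27 in anac017.

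**Figure D1:**
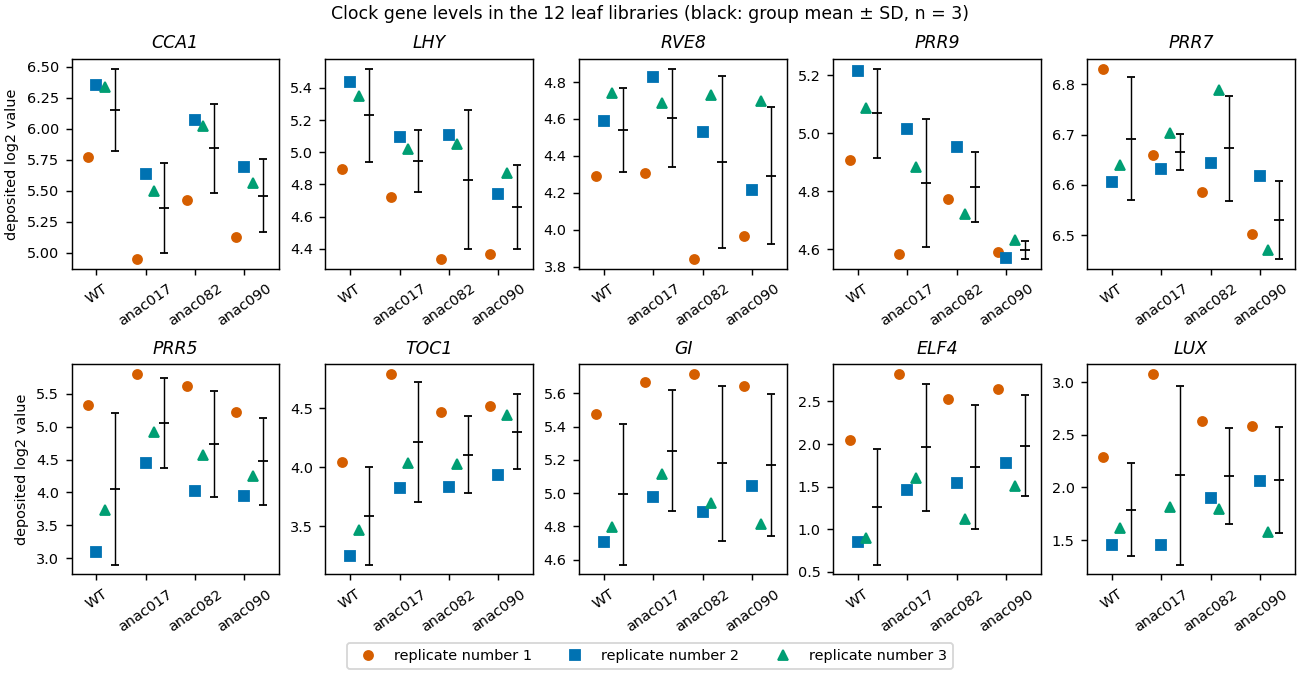
Deposited log2 value (y axis) of each of the 10 clock genes in the 12 libraries by genotype (x axis), with the colour and shape giving the replicate number and the black bar the group mean ± SD (n = 3). Replicate 1 is lowest in every genotype for CCA1, LHY and RVE8, and highest in every genotype for PRR5, TOC1, GI, ELF4 and LUX.

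The pseudo-response regulators follow, from the earliest in the day to the latest. PRR9 (AT2G46790, chromosome 2, 19232649 to 19235087) stood at 4.91, 5.21 and 5.09 in wild type and at 4.59, 5.02 and 4.88 in anac017. It was at 4.77, 4.95 and 4.72 in anac082 and at 4.59, 4.57 and 4.63 in anac090. The 3 anac090 libraries lay close together, at a mean of 4.60 ± 0.03, and below every wild type library (5.07 ± 0.15). PRR7 (AT5G02810, chromosome 5, 637897 to 641977) varied least among the 10, with all 12 values within 0.36 log2 units: 6.83, 6.61 and 6.64 in wild type, 6.66, 6.63 and 6.70 in anac017, 6.59, 6.64 and 6.79 in anac082, and 6.50, 6.62 and 6.47 in anac090. Its genotypes overlapped, and no replicate number was highest or lowest in all of them.

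PRR5 (AT5G24470, chromosome 5, 8355951 to 8358873) varied most, over 2.71 log2 units, and TOC1 (AT5G61380, chromosome 5, 24675064 to 24678550), also named PRR1, closes the series in the evening. Their promoters are shown because both hold the evening element, AAAATATCT, which is present in 2.82% of promoters in the window of 250 bases before to 50 after the start. PRR9, PRR5, TOC1 and LUX hold it there, in PRR9 after the annotated start. In the PRR5 stretch, chr5:8358715-8358848 (minus strand), capitals mark the element, as its reverse complement AGATATTTT, and between its copies the CCA1-binding site AAAAATCT, as AGATTTTT, which 7.88% of promoters hold and PRR5 is the only one of the 10 genes to hold in the shorter window. Starts here are those of the RefSeq TAIR10.1 annotation. The printed PRR5 stretch lies before that start but within the PRR5 locus of the deposited table given above. By the deposited coordinates its motifs are therefore after the gene start. The TOC1 stretch, chr5:24674802-24674952 (plus strand), holds the evening element from 151 bases before the start and a TCP site from 27 bases before it.
PRR5: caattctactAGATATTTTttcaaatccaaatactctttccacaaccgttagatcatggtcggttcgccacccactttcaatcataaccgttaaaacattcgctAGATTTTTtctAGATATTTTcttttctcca
TOC1: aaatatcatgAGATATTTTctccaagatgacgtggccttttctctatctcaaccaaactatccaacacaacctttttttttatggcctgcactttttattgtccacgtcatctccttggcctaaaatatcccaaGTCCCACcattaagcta

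PRR5 stood at 5.33, 3.09 and 3.73 in wild type replicates 1, 2 and 3 and at 5.80, 4.44 and 4.93 in anac017. It was at 5.62, 4.03 and 4.57 in anac082 and at 5.22, 3.95 and 4.25 in anac090. Replicate 1 was the highest and replicate 2 the lowest in each genotype, and at numbers 2 and 3 the wild type library was the lowest of the 4. TOC1 stood at 4.05, 3.25 and 3.47 in wild type and at 4.79, 3.83 and 4.03 in anac017. It was at 4.46, 3.83 and 4.03 in anac082 and at 4.52, 3.94 and 4.44 in anac090. At each number the wild type library had the least TOC1 transcript, yet the groups overlapped, with wild type replicate 1 above replicate 2 of every mutant. Means were 4.05 ± 1.15 for PRR5 in wild type against 5.06 ± 0.69 in anac017, 4.74 ± 0.81 in anac082 and 4.47 ± 0.67 in anac090. For TOC1 they were 3.59 ± 0.41 in wild type, 4.21 ± 0.51, 4.11 ± 0.32 and 4.30 ± 0.32 in the same order.

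GI (AT1G22770, chromosome 1, 8061844 to 8067716) encodes a large plant-specific protein that stabilizes ZTL, the F-box protein that targets TOC1 for degradation. ELF4 (AT2G40080, chromosome 2, 16734294 to 16734912) and LUX (AT3G46640, chromosome 3, 17183070 to 17185218), a DNA-binding GARP protein, are the evening complex members. In a window of 1000 bases before the start, added after the values were known and in which 7.24% of promoters hold the evening element, PRR5, TOC1, GI, ELF4 and LUX hold it, and these 5 genes are also those whose replicate 1 was highest in every genotype. CCA1, LHY, RVE8, PRR9 and PRR7 do not hold those letters in that window. In the shorter window the element was in PRR9, PRR5, TOC1 and LUX. The match of the 5 genes thus depends on the window and was not tested. The PRR5 copies printed above lie before the RefSeq start but within the deposited PRR5 locus. The stretches are shown because they hold the element, in capitals on either strand, with the G-box as well in LUX. They are GI at chr1:8060932-8061178 (plus strand), ELF4 at chr2:16735471-16735499 (minus strand) and LUX at chr3:17182839-17183007 (plus strand).
GI: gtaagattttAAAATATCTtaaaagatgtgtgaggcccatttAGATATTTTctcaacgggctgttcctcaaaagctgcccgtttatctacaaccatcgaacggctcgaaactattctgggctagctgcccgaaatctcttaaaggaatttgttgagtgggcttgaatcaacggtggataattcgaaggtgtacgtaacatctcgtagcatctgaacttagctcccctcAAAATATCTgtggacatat
ELF4: atactacaaaAAAATATCTtgcggattat
LUX: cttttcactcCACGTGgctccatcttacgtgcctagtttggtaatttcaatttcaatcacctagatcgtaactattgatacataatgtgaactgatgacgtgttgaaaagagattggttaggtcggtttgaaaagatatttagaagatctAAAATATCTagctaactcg

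**Figure D2:**
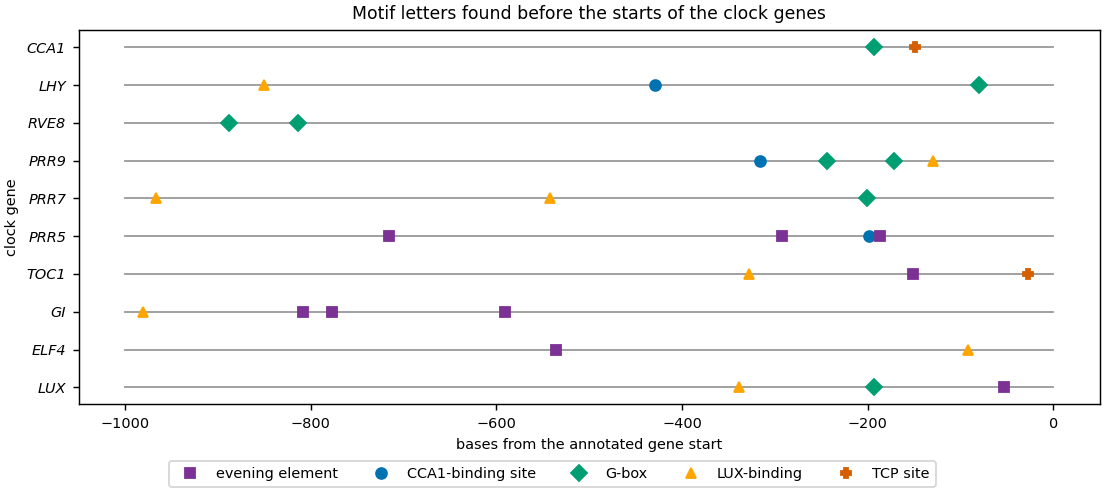
Position of 5 motifs (symbols) in the 1000 bases before the RefSeq annotated start of each clock gene (x axis, bases from the start, 0 at the start). The evening element appears before PRR5, TOC1, GI, ELF4 and LUX, 3 times each for PRR5 and GI, and not before the other 5 genes.

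Of the other letters searched, on both strands, the LUX-binding sequences GATACG and GATTCG were present in the 1000 bases before LHY, PRR9, PRR7, TOC1, GI, ELF4 and LUX, against 39.8% of promoters (14.5% in the shorter window, where PRR9 and ELF4 hold them). The CCA1-binding site was present before LHY, PRR9 and PRR5 (21.1% of promoters), the G-box before the same 6 genes as in the shorter window (14.8%), and the TCP site before CCA1 and TOC1 (3.94%). Neither the evening element nor the CCA1-binding site contains the letters of the other, and none of the printed copies overlap.

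GI stood at 5.48, 4.70 and 4.79 in wild type and 5.67, 4.98 and 5.12 in anac017. It was at 5.72, 4.88 and 4.94 in anac082 and at 5.64, 5.04 and 4.82 in anac090. Replicate 1 had the highest GI value in each genotype, and at each number the wild type library was the lowest of the 4. ELF4 stood at 2.05, 0.85 and 0.90 in wild type, at 2.82, 1.46 and 1.60 in anac017, at 2.53, 1.54 and 1.12 in anac082 and at 2.65, 1.78 and 1.51 in anac090. Each mutant library of ELF4 was above the wild type library of its number, but wild type replicate 1 was above replicates 2 and 3 of all mutants. LUX stood at 2.29, 1.46 and 1.61 in wild type, at 3.08, 1.46 and 1.82 in anac017, at 2.63, 1.90 and 1.8 in anac082 and at 2.58, 2.06 and 1.58 in anac090. The evening complex genes are listed low, where the log2(value + 1) scale understates changes.

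The replicate number was the stronger divide for most of these genes. In a limma model of genotype plus replicate number, 6 of the 10 differed between numbers at an adjusted p under 0.05, against 0.624% of all genes tested. This was an F test over the 3 numbers, whose steps the model takes as shared by the 4 genotypes. The adjusted p beside each difference of replicate 1 from the mean of replicates 2 and 3 is of that F test. Those differences were not themselves tested. CCA1 was lower in replicate 1 than the mean of replicates 2 and 3 (log2 difference -0.58 ± 0.05 SE, adjusted p = 0.00683), and LHY likewise (-0.50 ± 0.07, adjusted p = 0.0437). The evening genes went the other way, with PRR5 higher by 1.37 ± 0.12 (adjusted p = 0.00683), ELF4 by 1.17 ± 0.10 (0.00683), GI by 0.72 ± 0.06 (0.00752) and TOC1 by 0.60 ± 0.09 (0.0394). LUX at 0.93 ± 0.15 (adjusted p = 0.0576) and RVE8 at -0.52 ± 0.09 (0.0739) did not pass, nor did PRR9 at -0.17 ± 0.07 (0.273) or PRR7 at 0.01 ± 0.07 (0.960). Replicate 1 was the highest within all 4 genotypes for 5 of the 10 genes, against 6.76% of all genes, and the lowest within all 4 for 3 of the 10, against 3.96%.

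**Figure D3:**
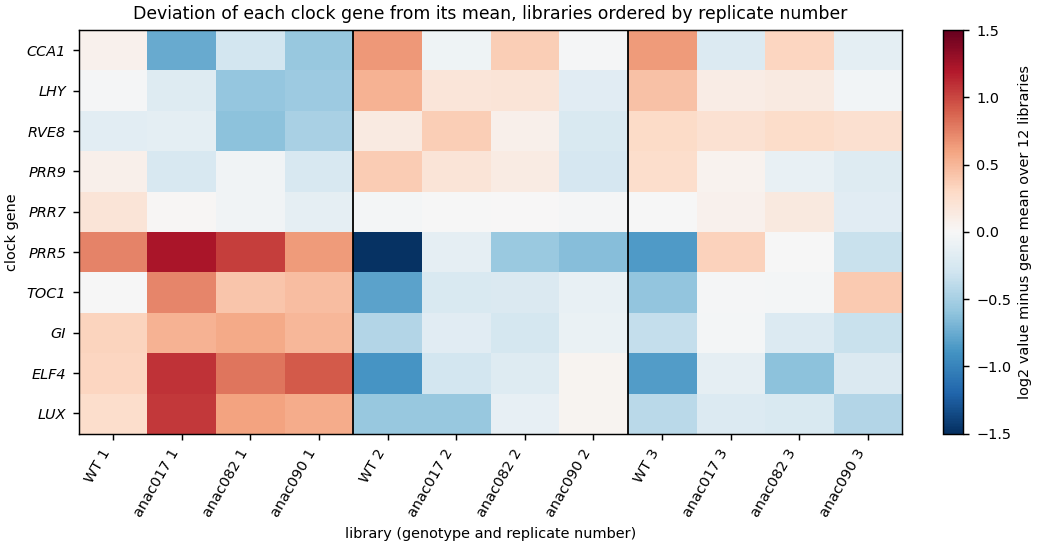
Log2 value minus the gene's mean over the 12 libraries (colour, red above and blue below the mean) for each clock gene (rows) in each library (columns, ordered by replicate number). The replicate 1 columns are red for PRR5, GI, ELF4 and LUX in all 4 genotypes, and wild type replicates 2 and 3 are the lowest of PRR5, GI and ELF4 and the highest of CCA1 and LHY.

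Numbers 2 and 3 differed from each other in none of the 10 genes in limma, against 0.0297% of all genes (PRR5, the largest such difference among them, stood at -0.49 ± 0.14, adjusted p = 0.274). The pairwise tests called 6 of the 10 between replicates 1 and 2 (0.838% of all genes) and 5 between 1 and 3 (0.601%). Leaving out a library numbered 1 lowered the count of 6 the most. It was 1 (PRR5) without wild type replicate 1, 2 (PRR5, GI) without anac017 replicate 1, 2 (CCA1, PRR5) without anac082 replicate 1 and 3 (CCA1, PRR5, ELF4) without anac090 replicate 1. The calls over all genes also fell, from 0.624% to 0.0714%, 0.101%, 0.107% and 0.137% in the same order. Without each of the other 8 libraries it was 4 to 8 clock genes (0.155% to 4.77% of all genes). Without both libraries that stood apart the same 6 genes passed (1.49% of all genes). The summed back-transformed level of the phloem markers SUC2, SWEET11, SWEET12 and APL was 488 to 647 in the replicate 1 libraries, 363 to 539 in replicate 2 and 374 to 540 in replicate 3. In the F test over the numbers 0 of these 4 markers passed, in the pairwise tests SWEET11 did between replicates 1 and 2 (0.56 ± 0.10, adjusted p = 0.0486), and their part in the clock gene differences was not tested.

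Of the variation of GI over the 12 libraries, 89.4% of the sum of squares lay between replicate numbers and 7.23% between genotypes. The share between numbers was also above that between genotypes for LUX (78.2% against 7.53%), ELF4 (76.6% and 20.6%), PRR5 (73.8% and 22.0%), RVE8 (69.0% and 16.8%), LHY (53.2% and 40.8%) and TOC1 (51.7% and 42.1%). It was the lesser share for CCA1 (42.5% and 56.9%), PRR9 (19.6% and 65.6%) and PRR7 (1.28% and 42.7%). For CCA1 number and genotype together left 0.609% of the variation, so that its 12 values were nearly the sum of a step for the genotype and a step for the number. The median share between numbers was 61.1% over the 10 genes and 20.0% over all genes tested, and the median range over the libraries was 1.25 log2 units for the clock genes and 0.73 for all genes.

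The libraries labelled anac017 were set against wild type to ask which transcripts differ in leaves of that line. In the model of genotype alone, limma called 0 of the 10 clock genes (1 at an unadjusted p under 0.05, CCA1) and 2.09% of all genes. The share of all genes at that unadjusted level was not computed, so unadjusted counts here and below have no background. CCA1 differed by -0.80 ± 0.24 (SE, 0.576 of wild type, adjusted p = 0.0943), with -0.83, -0.72 and -0.84 at numbers 1, 2 and 3. It was the 1 clock gene whose groups did not overlap, as in 41.6% of all genes. Same-numbered libraries of wild type and each mutant deviated together across genes, so the fit with the replicate number as a block is given beside it. That fit uses all 12 libraries and takes the steps between numbers as shared by the 4 genotypes. Between mutants not every same-numbered pair deviated together (anac082 replicate 2 and anac090 replicate 2 at -0.31), which limits the block calls here and below. With that block 4 of the 10 passed, against 7.16% of all genes: CCA1 fell (adjusted p = 0.00133), and PRR5 rose by 1.01 ± 0.16 (0.0183), TOC1 by 0.63 ± 0.12 (0.0253) and ELF4 by 0.70 ± 0.14 (0.0278). Without the block these 3 had adjusted p of 0.305, 0.200 and 0.387.

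PRR5, TOC1, GI and ELF4 were higher in anac017 at all 3 numbers, as were 29.3% of all genes, and CCA1, LHY and PRR9 were lower at all 3, as were 34.0%. PRR5 stood above wild type by 0.47, 1.35 and 1.20 at numbers 1, 2 and 3, and TOC1 by 0.74, 0.58 and 0.57. GI (0.26 ± 0.30, adjusted p = 0.606, block 0.0850), LHY (-0.28 ± 0.22, 0.438, block 0.0905), PRR9 (-0.24 ± 0.12, 0.235, block 0.129), LUX (0.33 ± 0.42, 0.646, block 0.275), RVE8 (0.07 ± 0.25, 0.892, block 0.753) and PRR7 (-0.03 ± 0.09, 0.871, block 0.860) did not pass in either fit. The block call of CCA1 was kept without each of the 12 libraries in turn (adjusted p 0.000855 to 0.0142). Those of TOC1 and ELF4 were lost without any library of wild type or anac017, and that of PRR5 without wild type replicate 2 or 3 or any anac017 library. The median difference over the 10 was 0.16, and -0.02 over all genes. The guard cell markers KAT1, MYB60, FAMA and HT1 summed to 23.1 to 24.4 in anac017 and 29.1 to 31.3 in wild type, the epidermis markers to 56.4 to 80.3 against 91.7 to 132 with PDF1 listed at 0 in all libraries, and the phloem markers to 539 to 647 against 363 to 488. Without the block SWEET12 passed, and with it SWEET12 (adjusted p = 0.00330) and SWEET11 (0.80, 0.0140) were higher and FAMA (-0.53, 0.0475) and HT1 (-0.52, 0.0375) lower, which makes 2 of 4 phloem and 2 of 4 guard cell markers. The other phloem markers, SUC2 (0.003) and APL (-0.22, lower at all 3 numbers), did not rise. KAT1 (0.005) and MYB60 (-0.45) did not pass either. The part of these markers in the clock gene differences was not tested.

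**Figure D4:**
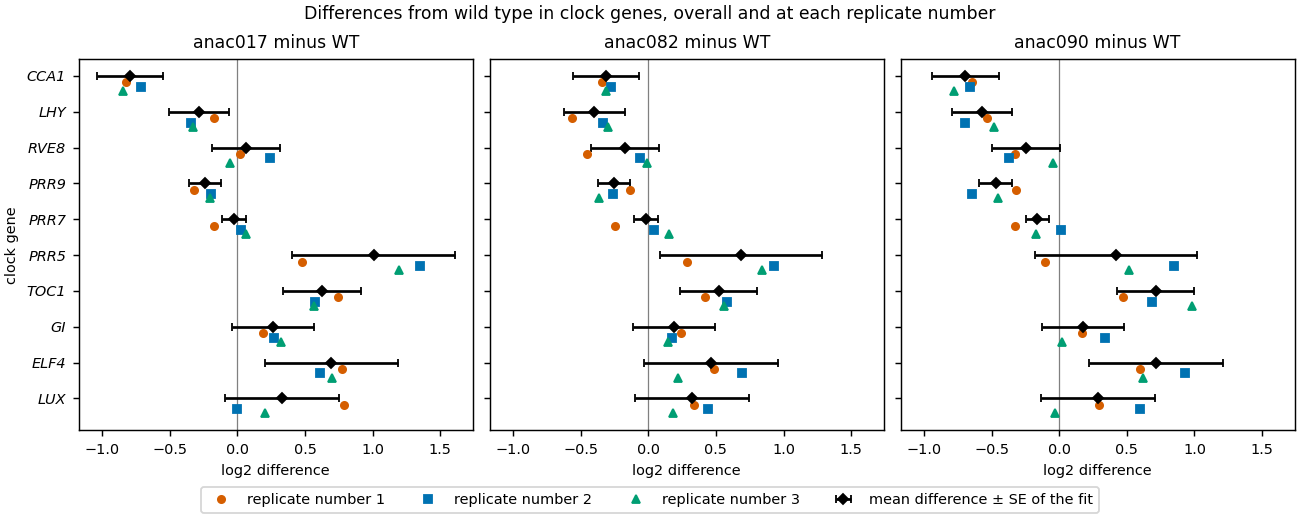
Log2 difference from wild type (x axis) of each clock gene (y axis) in the 3 mutants, with the colour and shape giving the difference at each replicate number and black the mean difference ± SE of the model without a block (n = 3 libraries per group). CCA1 is below 0 at every number in all 3 panels and TOC1, GI and ELF4 are above 0 at every number.

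In the libraries labelled anac090, limma called 1 of the 10 clock genes in the model of genotype alone. Among all genes 7.31% were called in either direction and 3.65% lower. At an unadjusted p under 0.05 there were 4 clock genes, a count for which the share of all genes was not computed. PRR9 fell to 0.721 of wild type (log2 difference -0.47 ± 0.12 SE, adjusted p = 0.0454, block 0.0212). Its differences were -0.32, -0.64 and -0.45 at numbers 1, 2 and 3. The call was lost without 10 of the 12 libraries in turn and kept without anac017 replicate 1 or anac090 replicate 2, over a range of adjusted p from 0.0331 to 0.133. It was also lost without both libraries that stood apart (adjusted p = 0.0775, block 0.0378). CCA1 (-0.69 ± 0.24, 0.618 of wild type, adjusted p = 0.0878, block 0.00492), LHY (-0.57 ± 0.22, 0.673 of wild type, 0.112, block 0.0176) and PRR9 did not overlap with wild type, as 31.6% of all genes did not.

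With the block 5 of the 10 passed in anac090, against 18.2% of all genes: CCA1, LHY and PRR9 fell, and TOC1 (0.71 ± 0.12, adjusted p = 0.119 without and 0.0173 with the block) and ELF4 (0.71 ± 0.14, 0.337 and 0.0199) rose. CCA1 was lower by similar steps at numbers 1, 2 and 3 (-0.64, -0.66 and -0.78). TOC1 was higher by 0.47, 0.69 and 0.98. CCA1, LHY, PRR9 and RVE8 were lower at all 3 numbers, as were 31.7% of all genes, and TOC1, GI and ELF4 were higher at all 3, as were 23.8%. Not past the threshold in either fit were PRR5 (0.42 ± 0.60, adjusted p = 0.655, block 0.0961), PRR7 (-0.16 ± 0.09, 0.225, block 0.216), GI (0.18 ± 0.30, 0.718, block 0.168), LUX (0.29 ± 0.42, 0.665, block 0.314) and RVE8 (-0.25 ± 0.25, 0.516, block 0.181). The block call of CCA1 was kept without each of the 12 libraries (adjusted p 0.00104 to 0.0455). Those of LHY, PRR9 and ELF4 were lost without any wild type library or anac090 replicate 1, and that of TOC1 without any wild type library. All 5 were kept without both libraries that stood apart, where 9.47% of all genes passed. The median over the 10 was 0.01, and -0.03 over all genes. Epidermis markers summed to 33.2 to 104 in anac090, guard cell markers to 27.8 to 31.7, phloem markers to 393 to 588 and mesophyll markers to 7942 to 8585 against 8818 to 9416 in wild type. Without the block SWEET12 passed, and with it SWEET12 (adjusted p = 0.0138) and SWEET11 (0.53, 0.0252) were higher and CA1 (-1.14, 0.0460), RBCS3B (-0.54, 0.0466) and ATML1 (-0.71, 0.0474) lower. These are 2 of 4 phloem, 2 of 4 mesophyll and 1 of 2 tested epidermis markers. The falls were largest in anac090 replicate 3, a library that stood apart. CA1 stood at -0.50, -0.49 and -2.43 at numbers 1, 2 and 3. RBCS3B stood at -0.25, -0.27 and -1.09, and ATML1 at -0.52, -0.30 and -1.33. That library also gave the lowest mesophyll and epidermis sums of anac090. The other phloem markers, SUC2 (-0.21) and APL (-0.13), were lower at all 3 numbers without passing. RBCS1A (-0.03) and FDH (-0.98) did not pass either. The part of the markers in the clock gene values was not tested.

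In the libraries labelled anac082, limma called 0 of the 10 clock genes (0 at an unadjusted p under 0.05) against 0.0476% of all genes, and 0 with the block against 0.0357%. No clock gene was without overlap with wild type, against 18.7% of all genes. The differences had the same sign at all 3 numbers in 9 of the 10: PRR5, TOC1, GI, ELF4 and LUX were higher, as were 19.7% of all genes, and CCA1, LHY, PRR9 and RVE8 lower, as were 22.5%. CCA1 stood at -0.31 ± 0.24 (adjusted p = 0.744, block 0.310), with -0.34, -0.28 and -0.32 at numbers 1, 2 and 3. TOC1 stood at 0.52 ± 0.29 (0.697, block 0.331), PRR5 at 0.69 ± 0.60 (0.760, block 0.331), LHY at -0.40 ± 0.22 (0.697, block 0.331) and ELF4 at 0.46 ± 0.49 (0.792, block 0.360). PRR9 stood at -0.25 ± 0.12 (adjusted p = 0.696), LUX at 0.32 ± 0.42 (0.831), GI at 0.19 ± 0.30 (0.871), RVE8 at -0.18 ± 0.25 (0.850) and PRR7 at -0.02 ± 0.09 (0.958). With the block and without both libraries that stood apart, CCA1 and TOC1 passed, and 8.75% of all genes did in that fit. The median over the 10 was 0.08, and -0.01 over all genes. Guard cell markers summed to 23.2 to 30.3, epidermis markers to 75.9 to 84.3 and phloem markers to 454 to 526, and their part in these values was not tested. The 3 comparisons share the wild type libraries, so an unusual wild type value enters all of them. Over all 4 genotypes at once, limma's F test called 0 of the 10 (1.87% of all genes), with adjusted p = 0.163 for CCA1 and 0.141 for PRR9, the 2 genes under 0.05 before adjustment. With the block this F test called 5 of the 10, against 6.74% of all genes. They were CCA1 (adjusted p = 0.00310), LHY (0.0390), PRR5 (0.0357), TOC1 (0.0320) and ELF4 (0.0414). Same-numbered libraries did not all deviate together over the 4 groups, which limits that block fit.

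Among 24 other clock genes, 21 were tested (BOA, JMJ30 and COR27 were too low), and 3 of these differed with the replicate number, against 0.624% of all genes. The adjusted p-values below are of the F test over the numbers, not of the difference from the mean of replicates 2 and 3. FKF1, the blue-light F-box protein that acts with GI, was higher in replicate 1 by 2.08 ± 0.13 (adjusted p = 0.00196), PRR3, the remaining pseudo-response regulator, by 1.39 ± 0.13 (0.00752), and ELF3, the scaffold of the evening complex, by 0.54 ± 0.08 (0.0428). FKF1 stood at 3.56, 0.95 and 1.41 in wild type replicates 1, 2 and 3 and at 4.62, 2.13 and 3.08 in anac017, a pattern of the same form as PRR5. Of 15 clock outputs 14 were tested (CO was too low), and 3 differed with the number, against the same 0.624%: GRP7, a clock-controlled RNA-binding protein, was higher in replicate 1 (1.27 ± 0.17, adjusted p = 0.0356), and the catalase CAT2 (-0.52 ± 0.07, 0.0311) and COL1, a CONSTANS-like factor (-0.59 ± 0.06, 0.00988), were lower.

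**Figure D5:**
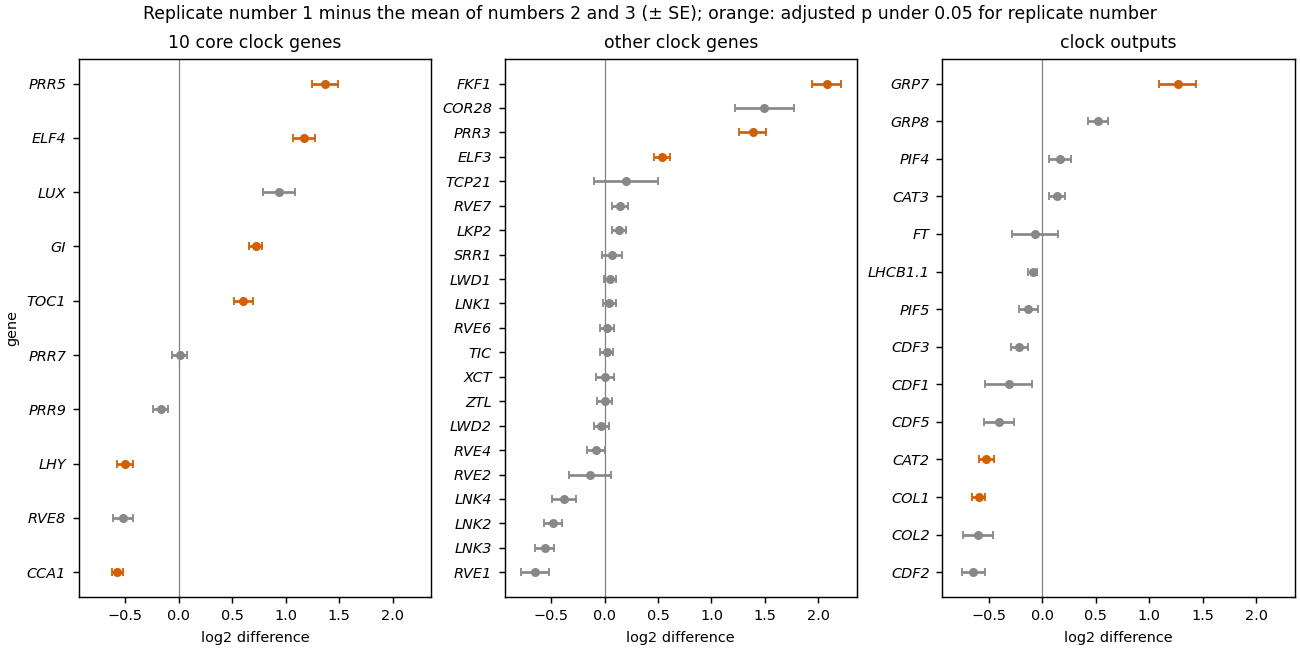
Log2 value in replicate 1 minus the mean of replicates 2 and 3 (x axis, ± SE of the model of genotype plus number, 12 libraries) for the 10 core genes, 21 other clock genes and 14 clock outputs. Orange marks an adjusted p under 0.05 in the F test over the replicate numbers. In the core genes PRR5, ELF4, GI and TOC1 are orange and above 0 and LHY and CCA1 orange and below 0.

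By genotype, limma called 0 of the 21 other clock genes in anac017 (4 at an unadjusted p under 0.05), 0 in anac082 (0 unadjusted) and 0 in anac090 (5 unadjusted). Of all genes 2.09%, 0.0476% and 7.31% were called in the same order. With the block it called 3 in anac017 (7.16% of all genes), 0 in anac082 (0.0357%) and 5 in anac090 (18.2%). Their median differences were -0.16, -0.06 and -0.16, against -0.02, -0.01 and -0.03 over all genes. The unadjusted counts have no share of all genes beside them, as that share was not computed. In anac017 the smallest p were those of RVE2 (0.86 ± 0.28, adjusted p = 0.10), LNK4 (-0.58 ± 0.22, 0.140), LNK3 (-0.66 ± 0.25, 0.148) and LWD1 (-0.20 ± 0.08, 0.166). With the block FKF1 (1.3, adjusted p = 0.0104) and PRR3 (1.02, 0.0183) rose and LNK3, of the LNK family that works with RVE8, fell (0.0230). In anac090 the smallest p were those of RVE7 (-0.48 ± 0.13, adjusted p = 0.0508), ZTL (-0.30 ± 0.11, 0.103), LWD1 (-0.21 ± 0.08, 0.105) and LNK2 (-0.54 ± 0.23, 0.134). With the block RVE7 (0.0218), LNK2 (0.0222), RVE1 (-0.70, 0.0336) and LNK3 (-0.46, 0.0353) fell in anac090 and FKF1 (0.71, 0.0322) rose. In anac082 the smallest p were those of LNK4 (-0.32 ± 0.22, adjusted p = 0.720), SRR1 (0.18 ± 0.14, 0.744), XCT (0.14 ± 0.11, 0.755) and LNK1 (-0.11 ± 0.09, 0.756).

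Of the 14 tested outputs, 3 passed in anac090 without a block, against 7.31% of all genes. The catalase CAT3, whose transcript peaks in the evening, rose by 0.48 ± 0.12 (adjusted p = 0.0394), and CDF3, a DOF factor that represses CO (-0.60 ± 0.14, 0.0373), and the CONSTANS-like gene COL2 (-1.25 ± 0.33, 0.0464) fell. COL2 stood at 4.14, 4.99 and 4.03 in anac090 and at 5.13, 5.81 and 5.97 in wild type. In anac017 limma called 0 of the 14 (4 at an unadjusted p under 0.05), with CDF3 at -0.49 ± 0.14 (adjusted p = 0.0786, block 0.0340), CAT3 at 0.37 ± 0.12 (0.0986, block 0.0551), COL2 at -0.93 ± 0.33 (0.121, block 0.0304) and CDF1 at -0.85 ± 0.37 (0.186, block 0.0949). With the block GRP7 (1.02, adjusted p = 0.0379) and GRP8 (0.60, 0.0313) rose and CDF3, COL2 and COL1 (-0.42, 0.0260) fell in anac017, 5 of 14 against 7.16% of all genes. In anac090 the block added GRP8 (0.53, adjusted p = 0.0284), 4 of 14 against 18.2%. In anac082 0 of the 14 passed (0 unadjusted), the smallest p being those of CAT3 (0.23 ± 0.12, adjusted p = 0.696), GRP8 (0.43 ± 0.28, 0.711), CDF2 (-0.46 ± 0.30, 0.712) and COL2 (-0.49 ± 0.33, 0.713). Median differences of the outputs were -0.17 in anac017, -0.11 in anac082 and -0.21 in anac090. Beside the counts of 0 without the block, 2.09% of all genes were called in anac017 and 0.0476% in anac082. For the unadjusted counts of the outputs too, the share of all genes was not computed.

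For each clock gene, the tested genes nearest in profile were those with the smallest root-mean-square difference between log2 profiles over the 12 libraries, each centred on its own mean. Nearest to CCA1 were LNK3 (0.147), BBX25 (0.154), a B-box zinc finger protein, and the receptor-like kinase gene AT4G22730 (0.163). Nearest to LHY was LNK2 (0.114), and nearest to PRR5 were PRR3 (0.176), GRP7 (0.204) and the CONSTANS-like gene COL10 (0.243). TOC1 was nearest to the kinase gene PBL1 (0.139), the helicase gene RH52 (0.160) and GRP8 (0.170). GI was nearest to AT2G25730 (0.132) and to RIBA2 (0.138) and PDX2 (0.141), genes of riboflavin and vitamin B6 synthesis. ELF4 was nearest to DGAT1 (0.239), CYP19-2 (0.251) and LUX (0.251), and LUX to CYP19-2 (0.215), AT1G56300 (0.219) and COL9 (0.227). LHY was followed by ACR5 (0.146) and ACS10 (0.153). RVE8 was nearest to MCM5 (0.125), AT4G36520 (0.150) and AT1G50180 (0.173), PRR9 to HST (0.0879), AT1G76570 (0.0890) and UP6 (0.0908), and PRR7, which hardly varied, to HAC5 (0.0596), AT5G56140 (0.0625) and BHLH128 (0.0628). Among these neighbours LNK3, LNK2, PRR3, GRP7, GRP8 and LUX belong to the clock and output lists above, and all the profiles share the 12 libraries and their normalization.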

How the data were processed

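RNA of 12 leaf libraries was compared. By the protocols in the labels, the libraries were stranded TruSeq libraries of poly(A) RNA, read on an Illumina HiSeq instrument. Per the submitters' processing notes, the tools were CASAVA 1.8.2, TopHat and Cufflinks on build TAIR10, without their roles or order, and whether counting used strand is not stated there. The deposited values are log2 values, treated as log2(abundance + 1) from their range. At equal ranks the values of the libraries lie within 0.08 log2 units of each other, so they had been quantile normalized between libraries, and a change shared by most genes is not visible in them. No counts are kept, so depth is unknown, and no interval that needs it is given. A total of 529 entries (1.57%) without a gene identifier stayed out of the tests.

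The test was limma 3.58.1 (R 4.3.3; lmFit, eBayes with trend), with Benjamini-Hochberg adjustment over 16817 genes and a threshold of 0.05, fitted on all 12 libraries with 4 groups. The model of genotype plus replicate number gave the replicate test and the block. It was fitted on all 12 libraries, with the steps between numbers taken as shared by the 4 genotypes. Between mutants this did not hold for every same-numbered pair (anac082 replicate 2 and anac090 replicate 2 at -0.31). The model was run on simulated data with planted differences and noise independent between libraries. Those data held no libraries made to stand apart, and their planted steps between numbers were shared by all genotypes. They therefore do not test the limits given here. Fold changes are on the log2(value + 1) scale and understate those of low genes. The groups come from the titles. The replicate numbers were taken to pair the samples in each comparison with wild type, from the data and not from the labels: deviations from group means correlated across genes at 0.258 to 0.487 between same-numbered libraries of wild type and anac017, 0.217 to 0.393 for anac082 and 0.165 to 0.406 for anac090, all over 0.1. Alternatives were other filters (none, or at least 5), pseudocounts (0.1 and 5), median centring, no trend, library weights, the block, fitting only 2 groups and leaving out libraries. The fits that combine the block with left-out libraries were added after seeing the data.

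Named genes are the 10 members, members of the 2 lists past the threshold or with the up to 4 smallest p, the 3 nearest profiles per member (among genes with an SD of at least 0.75 of the member's) and the targeted genes. The members and lists were chosen with earlier results of these data known. Promoter letters were read from the RefSeq TAIR10.1 genome at its annotated starts, with 10 of 10 members matched by locus identifier, and gene coordinates are those of the deposited table counted from 1. The starts of the 2 sources differ, and the printed PRR5 stretch lies within its deposited locus. Python 3.11.15, numpy 2.4.6 and matplotlib 3.10.9 were used for descriptions and figures.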

Additional observations from a re-analysis of the deposited data

How the results depend on the processing

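The count of 6 clock genes that differed with replicate number was 4 to 8 under the other settings (0.352% to 8.11% of all genes). With 1 library left out at a time it was 1 to 8 (0.0714% to 4.77%). In the paired comparisons, the replicate block moved the count of clock genes called from 0 to 4 in anac017 (all genes from 2.09% to 7.16%) and from 1 to 5 in anac090 (7.31% to 18.2%), and left it at 0 in anac082. With the block and without the 2 libraries that stood apart (added after seeing the data) it was 6, 5 and 2 for anac017, anac090 and anac082, against 29.1%, 9.47% and 8.75% of all genes. With the block and each library left out in turn (also added) it was 1 to 5 in anac017 (0.333% to 24.8% of all genes). It was 1 to 5 in anac090 (0.0773% to 38.4%) and 0 in anac082 (0.0178% to 0.0714%). With the same libraries left out and no block it was 0 in anac017 (0.291% to 17.6%) and 0 to 3 in anac090 (0.0654% to 29.8%). For anac017 it was 1 (CCA1) with library weights, with only the 2 groups fitted and without the 2 libraries apart (27.3%, 21.5% and 21.7% of all genes). For anac090 it was 0 with no filter, no trend, only the 2 groups and without the 2 libraries apart (1.99%, 6.24%, 0.0178% and 5.26% of all genes). It was 10 with library weights, whose estimation stopped before it converged and which called 44.9% of all genes. The genotype F test over 4 groups went from 0 to 9 with library weights, where 56.0% of all genes passed. Same-numbered libraries did not all deviate together there (anac082 replicate 2 and anac090 replicate 2 at -0.31), nor did every library correlate best with its own number. The block count of this F test was 5 (6.74% of all genes), also 5 without the 2 libraries apart (21.7%). With 1 library left out it was 1 to 6 (0.25% to 32.7%). Over all genes, calls ranged from 49 to 2957 in anac017 and from 11 to 5014 in anac090 with 1 library left out and no block, against 351 and 1229 with all libraries. The cause of these shifts was not tested.

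Reversals concerned clock genes not past the threshold, given here as log2 differences over fits that each leave out 1 library. PRR7 ranged from -0.070 to 0.042 in anac017 and from -0.077 to 0.051 in anac082, RVE8 from -0.059 to 0.21 and from -0.36 to 0.087, GI from -0.080 to 0.43 in anac082 and from -0.063 to 0.42 in anac090, LUX from -0.15 to 0.66 in anac017 and PRR5 from -0.058 to 1.06 in anac090. Without both libraries apart, anac082 had GI at -0.080, RVE8 at 0.087 and PRR7 at 0.024 (0.019 with library weights). With the block, PRR7 was at 0.036 in anac082 without the 2 libraries apart, 0.042 without anac082 replicate 1 and 0.071 without wild type replicate 1, and at 0.062 in anac017 without wild type replicate 1. RVE8 in anac017 was then at -0.022 without anac017 replicate 2. No other direction of the 10 genes in these comparisons reversed under the alternatives run. The unknown depth limits the low genes ELF4 and LUX most, since no counting error can be given for them.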
